A study of Mus musculus with 12 samples.

Results

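The subject here is the H3K4me1 regions of mouse fetal liver that lie away from H3K4me3, and how those that also carry H3K27ac differ from those that do not. A region was counted when it was a peak of 1 of the 3 H3K4me1 ChIP-seq libraries and shared no base with a peak of either H3K4me3 library. Such regions made up 89456 of the 139252 H3K4me1 peaks on chromosomes 1 to 19, X and Y, counting each library's list separately. A region was called acetylated when it shared at least 1 bp with a peak of the H3K27ac library in hand, and non-acetylated otherwise. All positions are on the mouse build mm9, counted from 1.

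The libraries came from C57BL/6 embryos at embryonic day 14.5. Whole fetal liver gave 3 libraries of H3K4me1, 2 of H3K27ac, 2 of H3K4me3 and 2 of H3K4me2, together with 1 input DNA sample not analysed here, and proerythroblasts gave 2 ATAC-seq libraries. The labels give no genotype other than the strain and no treatment, and they do not say whether livers were pooled or whether replicates came from separate litters, so the spread between libraries may be technical. Marks and open chromatin were measured in different cell populations: proerythroblasts are an early stage of red cell precursors, whereas whole fetal liver also holds later erythroid cells, hepatoblasts and other blood cells. The ChIP titles carry date-like tags whose meaning the labels do not give. H3K4me1 shares no tag with the other marks, whereas H3K27ac replicate 1, H3K4me2 replicate 1 and H3K4me3 replicate 2 share one, and H3K4me2 replicate 2 and H3K4me3 replicate 1 share another. A difference between tags and a difference between H3K4me1 and H3K27ac therefore cannot be told apart, and the part of shared tags in the overlap of H3K27ac with H3K4me2 or H3K4me3 was not tested.

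H3K4me1, a single methyl group on lysine 4 of histone H3, marks enhancers and the flanks of promoters, while H3K4me3 marks active promoters. H3K27ac is placed on active enhancers and promoters by the acetyltransferases CBP and p300, and enhancers with H3K4me1 but without H3K27ac are commonly called primed or poised. Red cells of the mid-gestation embryo are made mainly in the fetal liver, and enhancers marked by H3K4me1 and H3K27ac there include those bound by erythroid factors of the GATA, KLF and TAL families. ATAC-seq uses a transposase that inserts into open chromatin, and its peaks mark sites where factors can reach the DNA.

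The H3K4me1 regions without H3K4me3 numbered 35736 in replicate 1, 25785 in replicate 2 and 27935 in replicate 3. These were 68.2%, 60.9% and 62.7% of each library's list. Replicate 1 stood apart, with the longest list and with 30.2% of its regions met by neither of the other H3K4me1 libraries, against 10.0% in replicate 2 and 9.23% in replicate 3. Reads were not counted in these files, so the depth of each library is unknown and its part in the length of a list was not tested.

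Most of these regions met no H3K27ac peak. Against H3K27ac replicate 1, 8695 regions of H3K4me1 replicate 1, 8719 of replicate 2 and 8775 of replicate 3 were acetylated, whereas 27041, 17066 and 19160 regions of those 3 libraries were not. Against H3K27ac replicate 2, 6935, 7187 and 7152 regions of H3K4me1 replicates 1, 2 and 3 were acetylated and 28801, 18598 and 20783 were not. Over all H3K4me1 peaks of the 3 libraries, 45.9% met H3K27ac replicate 1 and 40.9% met replicate 2. The number of acetylated regions thus hardly moved with the H3K4me1 library, averaging 7911 ± 82.9 (SD, n = 3 H3K4me1 libraries), while that of non-acetylated regions averaged 21908 ± 5316. As a share, 27.1% ± 4.66 of the regions were acetylated (SD, n = 3), within a range of 19.4% to 33.8% over the 6 pairs of an H3K4me1 and an H3K27ac library. Over all H3K4me1 peaks, with and without H3K4me3, the share in the same 6 pairs was 43.4%. Each H3K4me1 library gave a lower share with H3K27ac replicate 2, which has the shorter H3K27ac list, than with replicate 1, and the SD between the H3K27ac libraries was 3.93 percentage points. The share was 29.7% when H3K4me1 replicate 1 was left out.

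The acetylated regions held a larger share of the sequence than of the regions. They covered 21.4 Mb ± 1.82 and non-acetylated regions 23.8 Mb ± 7.07 (SD, n = 3). Which class covered more depended on the libraries. Against H3K27ac replicate 1, acetylated regions of H3K4me1 replicates 1, 2 and 3 covered 25.2, 21.1 and 22.3 Mb and non-acetylated regions 30.0, 17.3 and 19.5 Mb. Against H3K27ac replicate 2 the acetylated cover was 21.7, 18.7 and 19.5 Mb and the non-acetylated cover 33.6, 19.8 and 22.3 Mb. Of the acetylated cover, 11.3 Mb ± 0.128 lay directly under H3K27ac peaks.

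Regions without H3K4me3 were acetylated less often than those with it. In regions without H3K4me3 the acetylated share was 24.3%, 33.8% and 31.4% for H3K4me1 replicates 1, 2 and 3 against H3K27ac replicate 1, and 19.4%, 27.9% and 25.6% against H3K27ac replicate 2, and in H3K4me1 regions with H3K4me3 it ran from 69.3% to 77.6% over the same pairs. The ranges did not overlap. The shares averaged 27.1% ± 4.66 without H3K4me3 and 73.7% ± 2.29 with H3K4me3, a difference of −46.6 ± 2.40 percentage points (SD, n = 3; two-sided exact sign-flip permutation test over the 3 H3K4me1 libraries, p = 0.25). With 3 libraries p cannot go below 0.25, so none of the comparisons below that use this test can pass 0.05, and the sizes of the differences are set beside the spread between libraries instead. The difference was −22.7 points when a region had to be acetylated over at least 50% of its length. The 3 differences also share the same H3K27ac lists and are not fully independent.

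Width differs between those groups as well, with a median of 990 bp ± 8.96 in regions without H3K4me3 and 2541 bp ± 516 in regions with it. Among regions of 2 to 4 kb, 53.8% ± 7.83 of those without H3K4me3 and 80.0% ± 5.16 of those with it were acetylated, a difference of −26.1 ± 2.77 percentage points. In each of 5 width classes, the share was lower in regions without H3K4me3 in 6 of 6 library pairs, with a mean difference between −32.3 points at 1 to 2 kb and −6.09 points at 8 kb or more. When H3K27ac peaks that touch H3K4me3 were set aside, the difference turned to 16.7 points, as that exclusion takes away most acetylation of the regions with H3K4me3 by its own construction.

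**Figure D1:**
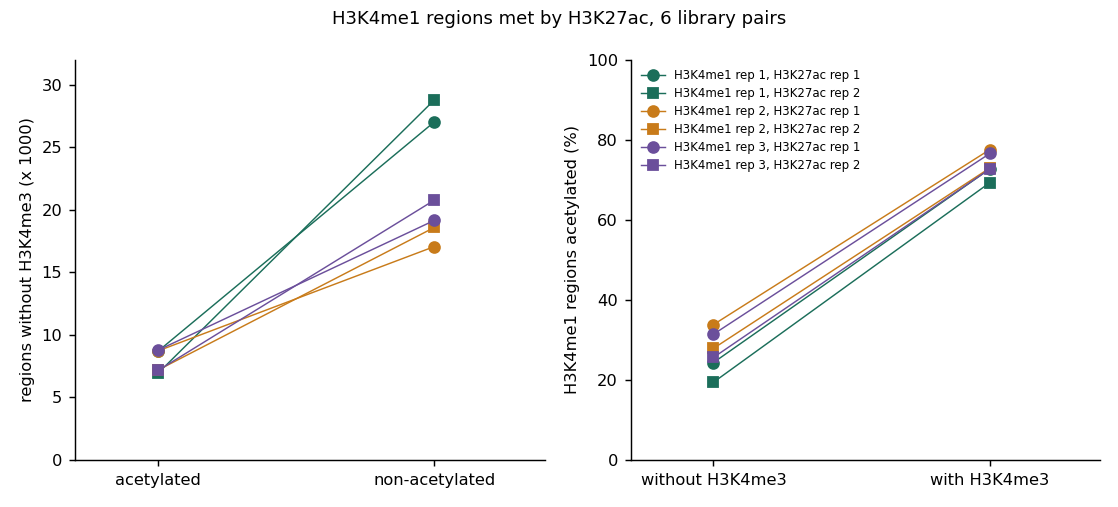
H3K4me1 regions met by H3K27ac in the 6 pairs of an H3K4me1 library (colour) and an H3K27ac library (circle for replicate 1, square for replicate 2). Left, the number of acetylated and of non-acetylated regions without H3K4me3, in units of 1000: the acetylated counts lie between 6935 and 8775 and the non-acetylated ones between 17066 and 28801. Right, the acetylated share in percent, at most 33.8% without H3K4me3 and at least 69.3% with H3K4me3.

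The H3K27ac libraries gave partly different calls on the same region. In H3K4me1 replicate 1, 16.6% of the regions met H3K27ac peaks of both libraries, 10.5% of a single library and 72.9% of neither. In H3K4me1 replicate 2 these shares were 24.2%, 13.4% and 62.5%, and in replicate 3 they were 22.0%, 12.9% and 65.0%. Regions called by a single H3K27ac library came mostly from its replicate 1, with 2488 to 2759 regions per H3K4me1 library, against 956 to 999 from replicate 2. These singly called regions were intermediate in width. Their medians were 1391, 1190 and 1229 bp in H3K4me1 replicates 1, 2 and 3, between 2681, 2215 and 2370 bp for regions called by both and 812, 763 and 750 bp for regions called by neither.

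Acetylated regions also overlapped more between H3K4me1 libraries. The Jaccard index, the bases found in both of a pair of H3K4me1 libraries divided by the bases found in either, averaged 0.588 ± 0.0350 for acetylated regions and 0.352 ± 0.0380 for non-acetylated ones (SD over 3 pairs of H3K4me1 libraries). Both libraries of a pair were classed with the same H3K27ac list, and widths were not matched. The part of that shared list and of width in the index was not tested. Of regions met by both other H3K4me1 libraries, 37.7% ± 0.120 were acetylated. That share was 10.5% ± 0.356 for regions met by a single other library and 7.52% ± 2.32 for regions met by none. Among regions of 1 to 2 kb these shares were 31.6% ± 4.38, 13.6% ± 1.42 and 11.3% ± 3.94, with the class met by both the highest in every pair. The lower classes overlapped, and in H3K4me1 replicate 3 regions met by none were acetylated slightly more often than those met by a single library, with either H3K27ac library. The regions met by both other libraries had a median width of 1472 bp, and the regions met by none one of 504 bp.

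Acetylated regions were wider than non-acetylated ones in every pair of libraries. Against H3K27ac replicate 1, their median widths were 2232, 1854 and 1958 bp in H3K4me1 replicates 1, 2 and 3, and those of non-acetylated regions were 825, 781 and 766 bp. The medians averaged 2107 bp ± 208 in acetylated and 804 bp ± 29.9 in non-acetylated regions, a difference of 1303 bp ± 182 (SD, n = 3, exact sign-flip permutation p = 0.25) and a ratio of 2.62 ± 0.173. The medians of the groups did not overlap over the pairs, and the ratio ran from 2.37 to 2.88. Widths of single regions did overlap. On average 1673 acetylated regions per H3K4me1 library were under 1 kb, and 2253 non-acetylated ones were 2 to 4 kb wide. Among peaks with a −log10 q of at least 5 in every list, the difference was 2963 bp. Here and wherever that cut is used in every list, it applies to H3K4me3 too. Regions that met only weaker H3K4me3 peaks then count as without H3K4me3. Longer regions have more bases on which to meet a peak, so width is carried through the comparisons below.

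By width, the acetylated share climbed across the whole range. Regions under 1 kb, which were 50.4% of all, were acetylated in 11.5% ± 3.17 of cases, and those of 1 to 2 kb in 27.1% ± 6.31. The share was 53.8% ± 7.83 at 2 to 4 kb, 78.3% ± 6.16 at 4 to 8 kb and 93.1% ± 1.80 at 8 kb or more. The widest class was small, with 229 to 403 regions per H3K4me1 library.

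The strength of the H3K4me1 peak went along with acetylation too. The authors' fold enrichment of the peak over the caller's background, which is used here only within a library's own list, had a median of 2.93 ± 0.173 in acetylated and 2.48 ± 0.0308 in non-acetylated regions. The difference was 0.447 ± 0.154 (SD, n = 3, exact sign-flip permutation p = 0.25) and had the same sign in 6 of 6 pairs. In quartiles 1 to 4 of fold enrichment, lowest first, the acetylated share was 9.63% ± 4.54, 16.5% ± 4.55, 26.4% ± 6.10 and 55.8% ± 3.96. Median widths in those quartiles were 701, 827, 1101 and 1895 bp. Within a width class the trend remained: among regions of 1 to 2 kb the share was 13.6%, 20.8%, 27.1% and 47.0% in quartiles 1 to 4, and among those of 4 to 8 kb it was 53.7%, 73.7%, 88.6% and 97.1%. With non-acetylated regions weighted to the widths of the acetylated ones, the median fold enrichment was 2.93 in acetylated and 2.61 in non-acetylated regions, a difference of 0.322 ± 0.108. Among peaks with a −log10 q of at least 5 in every list, without weighting, the difference was 0.262 ± 0.275, smaller than its SD.

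**Figure D2:**
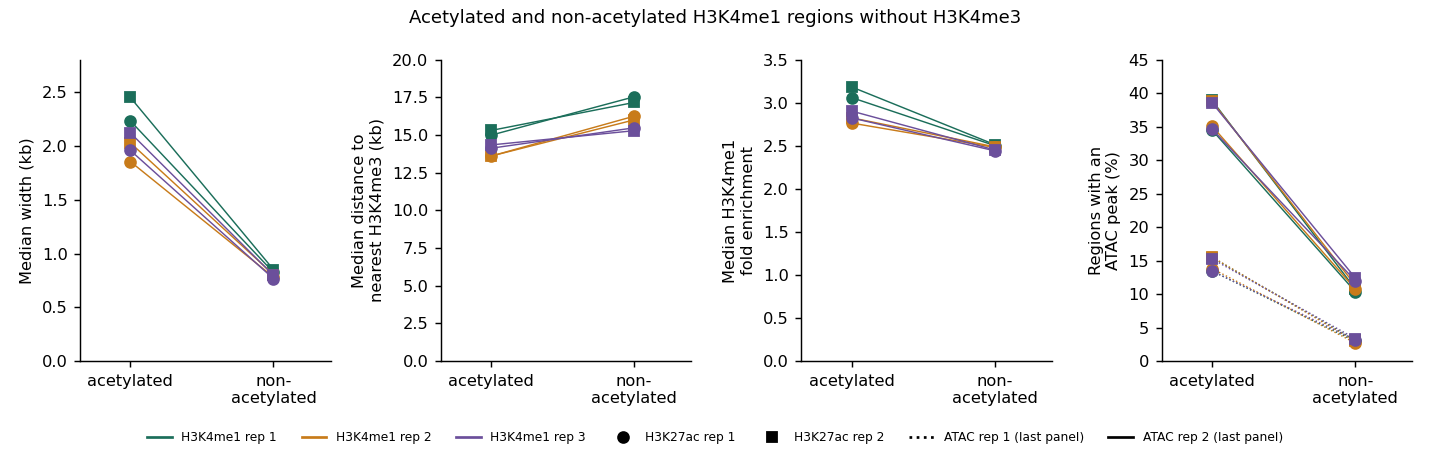
Medians of acetylated and non-acetylated H3K4me1 regions without H3K4me3 for width in kb, distance to the nearest H3K4me3 peak in kb and H3K4me1 fold enrichment, and the percentage with an ATAC peak. Each line is a pair of an H3K4me1 and an H3K27ac library, and in the last panel dotted lines are ATAC replicate 1 and solid lines replicate 2. Median widths do not overlap between the groups (1854 bp or more against 851 bp or less), although widths of single regions do. Median distances differ by −2.65 to −0.946 kb.

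Acetylated regions lay somewhat nearer to H3K4me3, a stand-in for active promoters. Their median distance to the nearest H3K4me3 peak was 15.0, 13.6 and 14.1 kb in H3K4me1 replicates 1, 2 and 3 against H3K27ac replicate 1, and that of non-acetylated regions was 17.5, 16.3 and 15.5 kb. On average it was 14.3 kb ± 0.777 in acetylated and 16.3 kb ± 0.993 in non-acetylated regions, a difference of −1.96 kb ± 0.719 (SD, n = 3, exact sign-flip permutation p = 0.25). All 6 pairs had the same sign, but the difference was small beside the distances themselves. With widths matched by weighting it shrank to −0.784 kb ± 0.901, with the same sign in 5 of 6 pairs. It was −0.847 kb with only H3K27ac peaks that touch no H3K4me3, and −0.932 kb in regions found in all 3 H3K4me1 libraries. Among peaks with a −log10 q of at least 5 in every list, it turned round: the medians were 23.3 kb ± 1.18 in acetylated and 19.02 kb ± 1.36 in non-acetylated regions, a difference of 4.30 kb ± 0.460, with 1442 acetylated and 3102 non-acetylated regions per library on average. That stricter setting also removes the weaker H3K4me3 peaks that define the distance and the excluded regions.

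By distance the acetylated share had its highest value at 5 to 10 kb and its lowest far from H3K4me3. It was 26.3% ± 5.44 under 5 kb, 30.7% ± 4.95 at 5 to 10 kb, 29.3% ± 4.50 at 10 to 20 kb, 27.4% ± 4.20 at 20 to 50 kb, 22.0% ± 4.26 at 50 to 100 kb and 19.3% ± 4.13 at 100 kb or more. Neighbouring classes overlapped within the spread between libraries. Median width went down with distance in the same direction, at 1048 bp for 5 to 10 kb and 890 bp for 100 kb or more. Among regions under 1 kb the share still went down with distance, at 13.9% ± 3.69 for 5 to 10 kb and 6.02% ± 2.03 for 100 kb or more, whereas among regions of 4 to 8 kb it was 79.5% ± 7.69 and 78.8% ± 7.82. Few regions lay at the very edge of H3K4me3: 235, 419 and 275 regions of H3K4me1 replicates 1, 2 and 3 had an H3K4me3 peak within 1 kb.

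**Figure D3:**
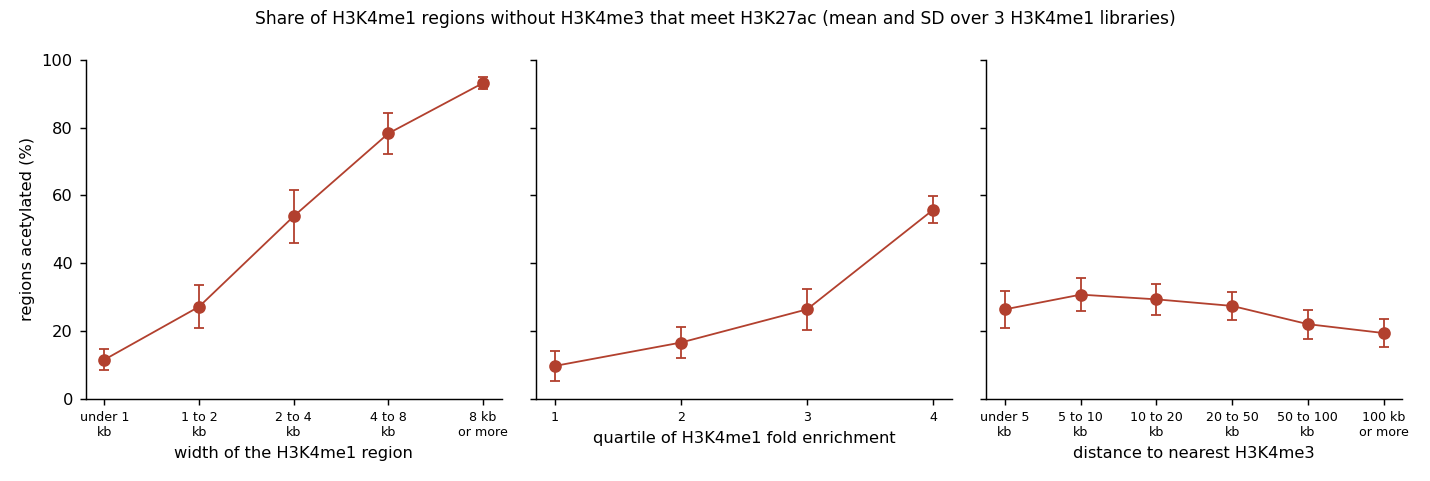
Percentage of H3K4me1 regions without H3K4me3 that meet H3K27ac, by width of the region, by quartile of H3K4me1 fold enrichment within each list, and by distance to the nearest H3K4me3 peak. Points are means and bars are SD over 3 H3K4me1 libraries, each averaged over the H3K27ac libraries. The share climbs with width to 93.1% and with fold enrichment to 55.8%, and stays between 19.3% and 30.7% over all distances.

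Within an acetylated region, H3K27ac covered part of the H3K4me1 region. The median share of a region under H3K27ac was 56.2% ± 4.65 (SD, n = 3), with quartiles at 30.1% ± 2.81 and 87.1% ± 5.41. Summed over regions, 52.9% ± 3.83 of the bases were covered. Between 10.9% and 19.2% of acetylated regions were covered in full, and 3.74% to 6.32% in less than 10% of their length. Most acetylated regions, 88.3% to 92.1%, held a single H3K27ac peak, and the most in a single region was 9. The covered share of bases was 68.2% ± 1.54 in regions under 1 kb and 50.2% ± 4.26 in those of 4 to 8 kb. In 45.1% to 65.6% of acetylated regions, an H3K27ac peak ran on past the edge of the H3K4me1 region.

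Along the region, H3K27ac was centred on H3K4me1. In acetylated regions scaled to a common length, 66.3% ± 2.14 of positions just past the centre lay under H3K27ac, against 40.1% ± 4.43 at the start and 28.6% ± 3.59 at 100 bp outside it. Non-acetylated regions seldom had H3K27ac close by. An H3K27ac peak lay within 1 kb of 1.86% to 5.91% of them, and the median distance to the nearest one was 9.10 to 15.0 kb over the 6 pairs.

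**Figure D4:**
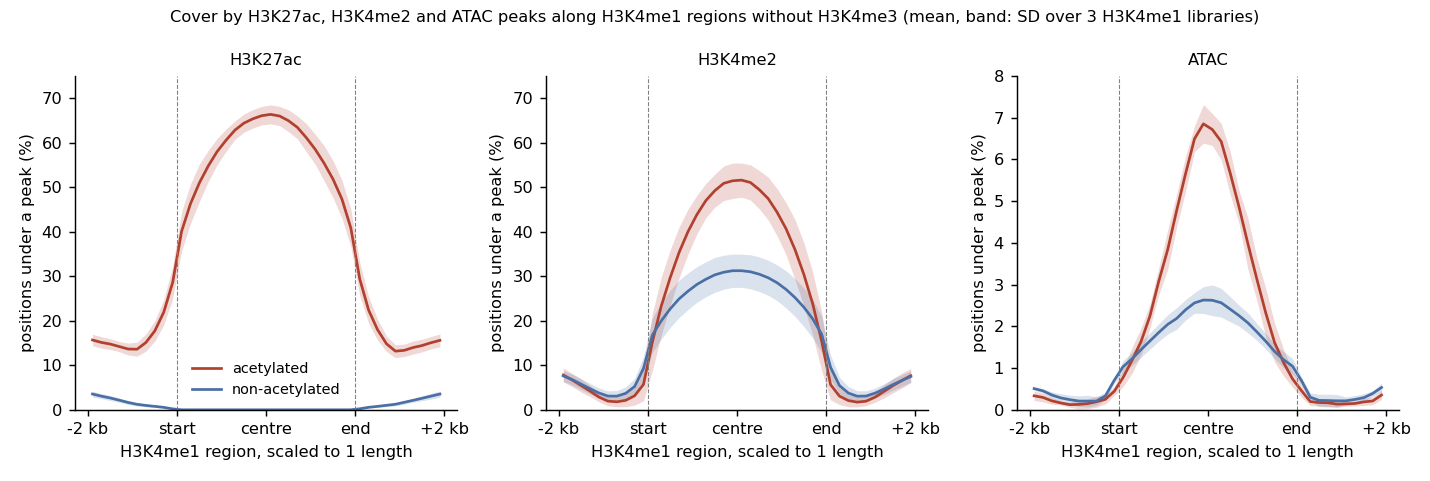
Percentage of positions under an H3K27ac, H3K4me2 or ATAC peak along acetylated and non-acetylated H3K4me1 regions without H3K4me3, scaled to a common length, with 2 kb on either side. Lines are means and bands are SD over 3 H3K4me1 libraries, averaged over libraries of the other marks. At the centre H3K4me2 reaches 51.6% in acetylated and 31.2% in non-acetylated regions, and ATAC 6.85% and 2.63%; H3K27ac is at 0 inside non-acetylated regions because that is how they were chosen.

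Open chromatin of proerythroblasts was found more often in acetylated regions. With ATAC replicate 1, 13.4% to 15.5% of acetylated and 2.72% to 3.37% of non-acetylated regions held an ATAC peak over the 6 pairs. With ATAC replicate 2, whose list is longer, the ranges were 34.5% to 38.9% and 10.4% to 12.4%. The groups did not overlap in either ATAC library. Over all H3K4me1 peaks, with and without H3K4me3, 24.8% met a peak of ATAC replicate 1 and 36.3% of ATAC replicate 2. Averaged over the ATAC libraries, the shares were 25.6% ± 0.166 in acetylated and 7.17% ± 0.507 in non-acetylated regions, a difference of 18.5 ± 0.631 percentage points (SD, n = 3, exact sign-flip permutation p = 0.25) with the same sign in 12 of 12 combinations of libraries. The size depends on the ATAC library, at 11.4 ± 0.382 points for replicate 1 and 25.5 ± 0.947 points for replicate 2. It was 47.2 points among peaks with a −log10 q of at least 5 in every list. Regions that met only weaker H3K4me3 peaks also entered there. When only H3K4me3 stretches with a peak of both H3K4me3 libraries were used for exclusion, the difference was 23.6 points.

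Part of that difference went with width. With non-acetylated regions weighted to the acetylated widths, the shares were 14.5% in acetylated and 5.47% in non-acetylated regions for ATAC replicate 1, and 36.8% and 20.3% for ATAC replicate 2. The difference over both libraries was then 12.7 ± 0.820 percentage points, again with the same sign in 12 of 12 combinations. Among regions of 2 to 4 kb, 17.8% ± 1.22 of acetylated and 6.44% ± 0.523 of non-acetylated regions met ATAC replicate 1, and 46.2% ± 1.45 and 24.1% ± 1.56 met ATAC replicate 2. Among regions under 1 kb the groups were closer. For ATAC replicate 1 the shares were 2.55% ± 0.785 and 1.92% ± 0.146, and the order was the other way round in 1 of 6 pairs. For ATAC replicate 2 they were 9.67% ± 2.20 and 7.07% ± 0.855, higher in acetylated regions in 6 of 6 pairs. Per 10 kb of region, acetylated regions had 0.577 ± 0.0548 and non-acetylated regions 0.290 ± 0.0257 peaks of ATAC replicate 1, and 1.57 ± 0.139 and 1.09 ± 0.123 peaks of ATAC replicate 2.

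Most acetylated regions nevertheless held no proerythroblast ATAC peak, and open regions were not all acetylated. Of the regions with a peak of ATAC replicate 1, 63.3% ± 6.34 were acetylated, against 24.7% ± 4.35 of the regions without one. For ATAC replicate 2 these shares were 54.3% ± 5.30 and 21.0% ± 3.93. Widths were not matched here. The regions with an ATAC peak had median widths of 2564 bp ± 89.9 for ATAC replicate 1 and 2123 bp ± 107 for replicate 2. Over all regions without H3K4me3 the median was 990 bp ± 8.96. The part of width in these shares was not tested. Since H3K27ac came from whole liver, acetylated regions of other cells in the liver need not be open in proerythroblasts, and the part of other cell types was not tested. In such bulk material a mark on all chromosomes of few cells and a weak mark in many cells cannot be told apart.

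**Figure D5:**
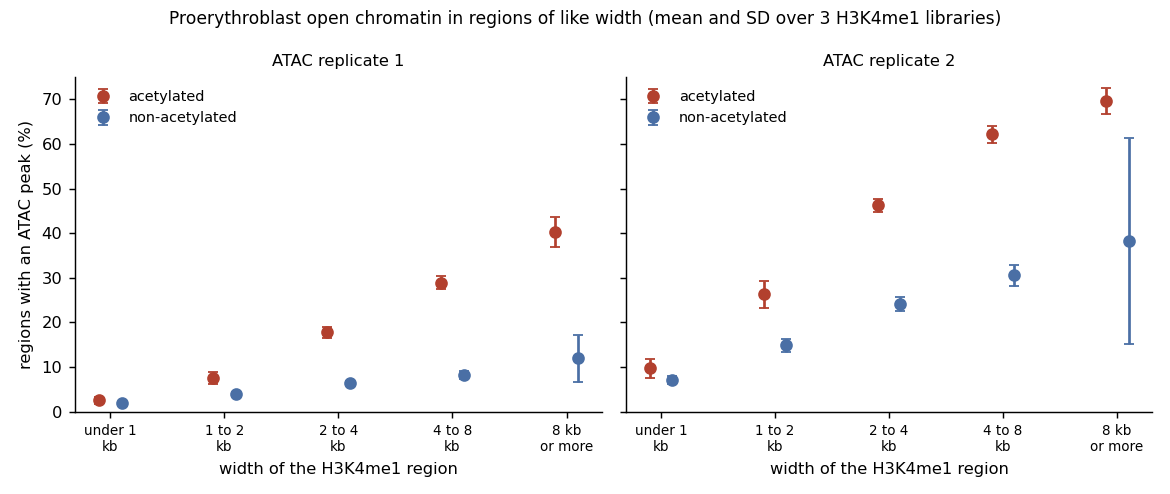
Percentage of acetylated and non-acetylated H3K4me1 regions without H3K4me3 that hold an ATAC peak, by width of the region, for each ATAC library. Points are means and bars are SD over 3 H3K4me1 libraries. In both libraries the acetylated mean lies above the non-acetylated one in each width class, with the closest values under 1 kb. The non-acetylated point at 8 kb or more rests on 21.2 regions per library on average.

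Open sites inside acetylated regions mostly sat under the acetylated part. The ATAC peaks' summits, the authors' positions of highest signal, fell under H3K27ac in 84.8% ± 1.30 of cases for ATAC replicate 1 and 79.3% ± 1.41 for replicate 2, with 1206 and 3291 summits per H3K4me1 library on average. H3K27ac covered 52.9% ± 3.83 of the bases of all acetylated regions. The mean share of summits, 82.0% ± 1.35, was higher than that by 29.1 ± 2.50 percentage points, and it was higher in 12 of 12 combinations. These are unlike sets, as summits lie only in acetylated regions with an ATAC peak. In those the median share of a region under H3K27ac was 70.4% ± 5.11 for ATAC replicate 1 and 61.1% ± 5.64 for replicate 2. The part of this in the excess was not tested. H3K27ac and ATAC were both densest at the centre of the H3K4me1 region, as the profile along the region shows.

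H3K4me2, a methylation state found at promoters and at enhancers, was more common in acetylated regions, by less once widths were matched. An H3K4me2 peak met 63.8% to 72.1% of acetylated and 37.8% to 44.4% of non-acetylated regions for H3K4me2 replicate 1, and 69.9% to 79.3% and 40.5% to 50.6% for replicate 2. Over all H3K4me1 peaks the share was 68.5%. On average the shares were 71.5% ± 2.69 in acetylated and 44.3% ± 4.13 in non-acetylated regions, a difference of 27.2 ± 2.44 percentage points (SD, n = 3, exact sign-flip permutation p = 0.25). With widths matched by weighting, they were 71.5% in acetylated and 66.4% in non-acetylated regions, and the difference fell to 5.07 ± 2.43 points. Under 1 kb, acetylated regions had the higher share in 2 of 6 pairs for each H3K4me2 library. The labels name one supplier's H3K4me2 antibody among the sample characteristics and another's in the protocol, so which antibody gave these lists is unsettled.

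Splitting regions by acetylation and by ATAC replicate 2 together gave 4 classes. Acetylated regions with an ATAC peak numbered 2891 ± 37.2 per H3K4me1 library, had a median width of 3127 bp ± 311, and met H3K4me2 in 96.2% ± 0.759 of cases. Acetylated regions without an ATAC peak numbered 5020 ± 50.5, with a median width of 1599 bp ± 130 and H3K4me2 in 57.2% ± 3.75. Non-acetylated regions with an ATAC peak numbered 2459 ± 492, with a median width of 1262 bp ± 111 and H3K4me2 in 82.1% ± 3.60. The remainder, non-acetylated and without an ATAC peak, was the largest class at 19449 ± 4848 regions, with a median width of 762 bp ± 29.3 and H3K4me2 in 39.5% ± 3.94.

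Within 2 to 4 kb, H3K4me2 went with open chromatin in both acetylation groups. Its share was 98.2% ± 0.675 in acetylated regions with an ATAC peak and 77.0% ± 4.47 in acetylated regions without one, and it was 93.2% ± 1.07 and 70.0% ± 4.06 in non-acetylated regions with and without an ATAC peak. In acetylated regions of that width, H3K27ac covered a median of 60.6% ± 4.36 of regions with an ATAC peak and 41.2% ± 2.23 of regions without one. The same order was seen with ATAC replicate 1, at 71.8% ± 4.01 and 45.7% ± 2.54.

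Read from the acetylation side, a large share of H3K27ac peaks away from H3K4me3 lacked H3K4me1. Of 17556 such peaks in H3K27ac replicate 1, 65.6%, 58.3% and 61.5% met a peak of H3K4me1 replicates 1, 2 and 3, and of 13175 in H3K27ac replicate 2, 76.8%, 70.2% and 73.7% did. Over all H3K27ac peaks the share was 79.2%. The share averaged 67.7% ± 8.34 in peaks without H3K4me3 and 97.0% ± 0.0977 in peaks with H3K4me3, a difference of −29.3 ± 8.44 percentage points (SD, n = 2 H3K27ac libraries; exact sign-flip permutation p = 0.5, the smallest that 2 libraries allow). Width differed between these groups too. In H3K27ac replicates 1 and 2 the medians were 906 and 840 bp without H3K4me3, and 2306 and 2092 bp with it. The part of width in the difference was not tested. Among peaks with a −log10 q of at least 5 in every list, the difference turned to 22.6 points.

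The H3K27ac peaks without any H3K4me1 peak were narrower, of lower −log10 q and almost never open in proerythroblasts. In H3K27ac replicate 1, 9357 peaks met all 3 H3K4me1 libraries and 5256 (29.9%) met none, and in replicate 2 these numbers were 8663 and 2482 (18.8%). Peaks that met all 3 H3K4me1 libraries had median widths of 1254 bp in replicate 1 and 1073 bp in replicate 2, and peaks that met none had 662.5 and 563 bp. ATAC replicate 2 met 30.8% and 31.3% of the peaks with H3K4me1 in all 3 libraries. It met 0.476% (25 peaks) and 0.685% (17 peaks) of the peaks with none, beside 46.4% and 53.4% of all H3K27ac peaks. H3K4me2 replicate 2 met 82.5% and 84.0% of the peaks with H3K4me1 in all 3 libraries and 1.39% and 0.927% of the peaks with none, beside 67.2% and 76.3% of all H3K27ac peaks.

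Width and repeatability moved with that contrast. Among H3K27ac peaks under 1 kb, ATAC replicate 2 met 14.8% and 14.5% of the peaks with H3K4me1 in all 3 libraries and 0.351% and 0.448% of the peaks with none, in H3K27ac replicates 1 and 2. The other H3K27ac library met 70.8% and 84.4% of the peaks with H3K4me1 in all 3 libraries, against 19.9% and 50.8% of the peaks with none. Among peaks that were found in both H3K27ac libraries, ATAC replicate 2 met 39.1% and 35.6% of those with H3K4me1 in all 3 libraries and 1.63% and 1.19% of those with none. The median −log10 q was 2.10 and 2.08 in the peaks with H3K4me1 in all 3 libraries and 1.52 and 1.47 in those with none. The authors' fold enrichment differed little, at medians of 2.79 and 2.69 in the peaks with H3K4me1 in all 3 libraries and 2.66 and 2.57 in those with none.

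Acetylated regions tended to lie next to acetylated regions. The nearest other H3K4me1 region without H3K4me3 was itself acetylated for 43.4% ± 3.04 of acetylated and 22.6% ± 4.02 of non-acetylated regions, a difference of 20.8 ± 0.981 percentage points (SD, n = 3) that had the same sign in 6 of 6 pairs. That nearest region was a median of 3.67 kb ± 0.489 away from acetylated and 6.33 kb ± 0.645 away from non-acetylated regions. A single run of H3K27ac joined 11.2% to 15.7% of the acetylated neighbours. Among regions whose nearest neighbour was at least 10 kb away, the share was still 26.6% to 39.0% for acetylated regions. It was 13.8% to 26.1% for non-acetylated ones, lower than for acetylated regions within each pair. Of all regions, at any distance, 19.4% to 33.8% were acetylated. Widths were not matched in these comparisons, and the part of width was not tested.

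Across chromosomes the acetylated share ran from 23.4% ± 4.30 on chromosome 8 to 31.3% ± 4.91 on chromosome 12. The share was higher on chromosome 12 than on chromosome 8 in 6 of 6 pairs; these chromosomes were picked as the extremes after their values were seen, so the difference is not tested. On the X chromosome it was 27.9% ± 5.45, against 27.1% ± 4.65 on the autosomes, a difference of 0.874 ± 2.22 percentage points. In peaks with a −log10 q of at least 5 in every list the difference was 25.9 ± 1.09 points, on 22 to 82 X-linked regions per library. The Y chromosome held at most 10 regions in a library.

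Individual regions were taken from a merged set, in which a region held a peak of all 3 H3K4me1 libraries and touched no H3K4me3 peak. Of 16384 such regions, 5075 (31.0%) met both H3K27ac libraries, 2426 (14.8%) met a single one and 8883 (54.2%) met neither. Their median widths were 3490, 2279 and 1676 bp. ATAC peaks of both libraries fell in 19.03%, 4.99% and 3.75% of them. Of the 579 merged regions of 8 kb or more, 491 met both H3K27ac libraries and 43 met neither. The regions described next were picked from this set by width, peak strength, ATAC sites or acetylated length, so those values describe them and are not tested. No gene annotation on mm9 was at hand, so they are given by position. Where a region held several peaks of a library, its fold enrichment is that of the strongest.

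The widest acetylated regions differed in how much of them was acetylated. The widest, chr8:125447094-125494909, spanned 47.8 kb, with 10.3% of its length under H3K27ac in replicate 1 and 4.75% in replicate 2. It joined 4, 6 and 7 peaks of H3K4me1 replicates 1, 2 and 3. Close to it, chr8:125498103-125538048 spanned 39.9 kb, with 12.5% and 14.7% under H3K27ac and no ATAC peak. That region joined 2, 6 and 5 peaks of H3K4me1 replicates 1, 2 and 3. These neighbours were thus merged runs of several H3K4me1 peaks with short acetylated stretches, and no library spanned either with a single peak. In contrast, chr13:112708083-112741804 spanned 33.7 kb and was acetylated over 71.2% and 71.1% of its length, with 2 peaks of ATAC replicate 1 and 3 of replicate 2. On chr3:105550184-105591001, a region of 40.8 kb, the shares were 51.8% and 49.3%, and on chr15:61942427-61974158, of 31.7 kb, they were 51.5% and 32.1%. With H3K27ac peaks of −log10 q of at least 5 only, the chromosome 8 regions had no H3K27ac, and the mean share over both H3K27ac libraries was 57.3% on the chromosome 13 region, 32.02% on the chromosome 3 region and 5.24% on the chromosome 15 region (71.2%, 50.5% and 41.8% with all peaks).

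The widest regions that met neither H3K27ac library were smaller. The widest, chr9:63581650-63599550, spanned 17.9 kb at 4.77 kb from the nearest H3K4me3 peak, and held 2 peaks of ATAC replicate 2 and none of replicate 1. Its H3K4me1 fold enrichment was 2.88, 2.54 and 2.68 in replicates 1, 2 and 3. The next were chr11:31805307-31819969 (14.7 kb), chr2:72786330-72800060 (13.7 kb), chr5:75992146-76005855 (13.7 kb) and chr2:60674982-60687672 (12.7 kb). In these 5 regions H3K4me2 covered between 9.82% and 33.5% of the length in its replicate 1 and between 23.4% and 61.4% in replicate 2.

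Non-acetylated regions could hold several open sites. In chr2:152591761-152599566, a region of 7.81 kb, 3 ATAC sites were present in both ATAC libraries, with a highest ATAC fold enrichment of 6.70 in replicate 1 and 7.59 in replicate 2, and no H3K27ac peak in either library. A further 2 such sites lay in chr9:107364785-107367415, which is 2.63 kb wide and was covered by H3K4me2 over 75.2% and 80.1% of its length. Both lay more than 10 kb from H3K4me3, at 14.8 and 24.5 kb. The third region picked for ATAC sites was the wide chr5:75992146-76005855 above, with 1 such site.

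The reverse also occurred, as long acetylated stretches without any proerythroblast ATAC peak. The region chr4:130238092-130252534, of 14.4 kb, was under H3K27ac over 94.5% of its length in replicate 1 and 88.4% in replicate 2. For chr10:30447947-30458718 (10.8 kb) the shares were 100% and 98.0%, and for chr7:63252680-63262063 (9.38 kb) they were 100% and 97.1%. These regions had H3K4me1 fold enrichments of 3.06 to 3.88 over the 3 H3K4me1 libraries. With H3K27ac peaks that touch H3K4me3 set aside, the mean share went down to 44.2% for chr4:130238092-130252534, 49.0% for chr10:30447947-30458718 and 48.5% for chr7:63252680-63262063, so in part of the libraries the H3K27ac peak there ran on to an H3K4me3 peak. With only H3K27ac peaks of −log10 q of at least 5, the mean shares were 79.0% for the chromosome 4 region and 50% for each of the others.

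The strongest H3K4me1 peaks of both classes included a close pair. On chromosome 1, chr1:153055458-153056558 met both H3K27ac libraries and had H3K4me1 fold enrichments of 7.72, 6.11 and 7.34 in replicates 1, 2 and 3. Only 26.5% of its length lay under H3K27ac in replicate 1 and 22.9% in replicate 2. The region chr1:153058862-153060172, next to it, met neither H3K27ac library and had 5.43, 3.09 and 5.86. Neither region held an ATAC peak, and since repeats and artefact-prone sequence were not filtered out, the part of such sequence was not tested. The other strong acetylated regions were chr16:58600511-58608702, at 6.21, 5.50 and 5.90 with 75.4% and 67.8% of its length acetylated, and chr5:89055122-89060798, at 6.45, 4.97 and 5.88 and acetylated in full in both H3K27ac libraries. Both held an ATAC peak in each ATAC library. The other strong non-acetylated regions were chr10:75445994-75446841, at 5.16, 4.09 and 4.49 and without an ATAC peak, and chr2:174233095-174237013, at 4.60, 4.33 and 4.55 with a peak of ATAC replicate 2 only.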

How the data were processed

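The authors deposited a separate peak list for every library, so calling was library by library. Trimmomatic 0.32, Bowtie 1.0.1, SAMtools, MACS2 and build mm9 are named in the submitters' processing notes, with settings, control library and MACS2 version not given in the sources used here. ChIP lists have the broad and ATAC lists the narrow MACS format, per the file columns. Beside positions, the authors deposited for each peak a score (not used), a fold enrichment (a ratio), and its p and q as −log10 values. Fold and −log10 q served only to describe and filter peaks within a list. The ATAC samples carry protocol text on ChIP, so whether cut sites were shifted is unknown. Depth is unknown too, and no signal was compared between libraries.

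Only chromosomes 1 to 19, X and Y entered, and 7 peaks on other chromosomes were left out. Overlap meant at least 1 shared bp. Each value was computed for every pair of an H3K4me1 and an H3K27ac library, averaged over the H3K27ac libraries (and over ATAC or H3K4me2 libraries) within each H3K4me1 library, and given as mean ± SD over 3 H3K4me1 libraries, or over 2 H3K27ac libraries for the view from H3K27ac. Distances ran from region edge to peak edge. Differences were tested by a two-sided exact sign-flip permutation test over libraries, and regions of a genome were not treated as replicates. Weighting to acetylated widths, in 20 width bins, was chosen after seeing the data. The profile took 20 points along each region and steps of 200 bp in the flanks. Python 3.11.15, numpy 2.4.6, pandas 2.3.3, scipy 1.17.1 and matplotlib 3.10.9 were used, and the overlap code was tested on simulated peaks.

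Named regions came from the merged regions with a peak of all 3 H3K4me1 libraries and no H3K4me3: the 5 widest acetylated in both and the 5 widest acetylated in neither H3K27ac library, the 3 of highest H3K4me1 fold enrichment in each of these classes, the 3 non-acetylated ones with most ATAC sites (ties by width), and the 3 with most bases under H3K27ac and no ATAC peak. The regions and comparisons were chosen with earlier results of these data known. The gene tables supplied are on another build, so gene names, lists of cell type markers and sequences were not used.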

Additional observations from a re-analysis of the deposited data

How the results depend on the processing

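The 14 results were recomputed under 22 alternatives where each applied, 271 cases in all, and weighting to widths was chosen after seeing the data. Leaving out an ATAC library and weighting to widths touch only part of the results, chromosomes 1 to 19 alone give no X difference, and a single H3K27ac library gives no share called by both. Tested differences kept their direction in 136 of 139 cases. That count holds cases that a setting could not change. The difference in the share of H3K27ac peaks with H3K4me1 stayed at −29.3 points with at least 50% of a region acetylated and with acetylation by both against by neither. It did so too with only H3K27ac peaks without H3K4me3 and in regions of all 3 H3K4me1 libraries. The 3 reversals were, at a −log10 q of at least 5, the distance to H3K4me3 (4.30 kb) and the share of H3K27ac peaks with H3K4me1 (22.6 points), and, with only H3K27ac peaks without H3K4me3, the acetylated share without minus with H3K4me3 (16.7 points). The cause of the first pair was not tested; the last follows from the exclusion itself. Sizes moved more than directions. At a −log10 q of at least 5 the ATAC difference was 47.2 points, the width difference 2963 bp and the fold enrichment difference 0.262 ± 0.275. That cut also drops weaker H3K4me3 peaks, so regions that met only those entered as without H3K4me3. The difference without minus with H3K4me3 was −22.7 points when at least 50% of a region had to be acetylated. The distance difference was −0.847 kb with only H3K27ac peaks without H3K4me3, −0.932 kb in regions of all 3 H3K4me1 libraries and −0.784 kb with widths weighted, where the H3K4me2 difference was 5.07 points.

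Of the other values, at a −log10 q of at least 5 the number of regions was 4544, the acetylated share 34.5%, the share of a region under H3K27ac 84.3%, the excess of summits 20.9 points, the X difference 25.9 points, the excess of acetylated neighbours 6.64 points and the share of acetylated regions called by both H3K27ac libraries 82.5% (62.9% otherwise). When a region had to be acetylated over at least 50% of its length, the acetylated share was 15.2%, the share of a region under H3K27ac 83.4%, the excess of summits 17.8 points and the share called by both libraries 51.1%. In regions found in all 3 H3K4me1 libraries, the number was 18427, the acetylated share 37.7%, the X difference 3.83 points, the excess of acetylated neighbours 17.8 points and the share called by both 67.2%. Acetylation by both against by neither library gave 79.5% of a region under H3K27ac and an excess of summits of 23.7 points. With only H3K27ac peaks without H3K4me3, the excess of acetylated neighbours was 18.6 points and the share called by both 60.5%. Requiring 200 bp shared gave 18.7 points for neighbours, and excluding by consensus H3K4me3 only gave 65.8% called by both. The cause of these shifts was not tested.

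Leaving out 1 library at a time gave 26860 to 31836 regions, an acetylated share of 24.3% to 29.9%, a difference without minus with H3K4me3 of −47.7 to −45.3 points, width differences of 1203 to 1510 bp, distance differences of −2.36 to −1.68 kb and fold enrichment differences of 0.363 to 0.515. The share of a region under H3K27ac was 53.9% to 58.8%, the ATAC difference 11.4 to 25.5 points (the ends being ATAC replicates 1 and 2 alone), the H3K4me2 difference 26.1 to 28.6 points, the excess of summits 26.4 to 31.8 points and the H3K27ac difference −35.3 to −23.4 points. The X difference, smaller than its SD, changed sign, at −0.400 to 1.99 points, the excess of acetylated neighbours 20.2 to 21.4 points and the share called by both 62.1% to 65.6%.

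The differences between acetylated and non-acetylated regions were taken within each H3K4me1 library. The labels do not say whether equal replicate numbers share an animal or a day. Taking only libraries of the same replicate number together, as a replicate block, gave an acetylated share of 26.1%, a width difference of 1315 bp, a distance difference of −2.47 kb and an ATAC difference of 18.96 points, and changed no direction of a tested difference; the X difference was −0.761 points.

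Depth limits all shares: it is unknown here, a region without a peak is not shown to lack the mark, and with H3K27ac lists of equal length the acetylated share was 24.9%.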
